A study of Mus musculus with 4 samples.

Results

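The genes described here are 10 genes of the NF-kappaB system, 5 inhibitors of the IκB family (Nfkbia, Nfkbib, Nfkbie, Nfkbiz and Bcl3) and the 5 subunits (Nfkb1, Nfkb2, Rel, Rela and Relb). They were followed in maps of BCL6, a zinc finger repressor, in mouse adipocyte nuclei. All peaks whose nearest annotated promoter belongs to one of these genes were taken, at any distance, which gave 1 of the 1785 inguinal peaks and 4 of the 3956 perigonadal ones. These 5 peaks belonged to 3 genes, Nfkbia, Nfkbiz and Nfkb1, and the other 7 genes had no peak in either list.

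Every sample came from C57BL/6 mice of the genotype Adipoq-Cre;Sun1-sfGFP-myc, and both depots share that genotype. The Adipoq promoter drives the recombinase in adipocytes, so that the tagged nuclear membrane protein marks nuclei of adipocytes, which were enriched on beads against the tag. A peak list holds no expression values, so the identity of the nuclei could not be checked against adipocyte markers. Chromatin of inguinal fat and of perigonadal fat was precipitated with a custom guinea pig antibody to Bcl6 and sequenced as 1 library per depot, and 1 input library per depot carried no antibody and was not analysed here. The age, sex and number of mice behind a library are not given in the sources used here.

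NF-kappaB transcription factors are dimers of Rel-family subunits. In resting cells the classical inhibitors hold the dimers in the cytoplasm, and signals from cytokine or microbial receptors lead to phosphorylation and destruction of the inhibitor by way of the IκB kinase. Freed dimers enter the nucleus, bind κB sites and activate inflammatory genes as well as their own inhibitors, which closes a feedback loop. In adipose tissue the pathway is known for its part in inflammation that accompanies obesity. BCL6 recruits corepressors, and in other cell types it is known to bind near many NF-kappaB target genes.

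The promoter sequences of the family are shown because several carry the κB pattern, and that of Nfkbia because the distances of its peaks are measured from its start site. RefSeq promoter windows on GRCm38.p6 were found for 7 of the 10 genes, with 9 windows in all because Nfkb2 has 3 start sites in the table. Nfkb1, Nfkbiz and Relb had no window and were not searched, and of these Nfkb1 and Nfkbiz have a BCL6 peak. The 250 bases before each start were searched on both strands. The κB consensus was present in 6 of the 9 windows, against 3.90% of 32851 windows of the same length over all genes. Of these 6 windows 3 belong to Nfkb2. By gene the consensus was present in 4 of the 7, Nfkbia, Nfkbie, Rel and Nfkb2, against 4.46% of 27025 genes. The windows of the family had a median GC content of 64.8%, against 52.4% over all windows, and the part of base composition in the count was not tested. In the lines below capitals mark the κB match, or 2 overlapping matches as 1 run, and each sequence is printed 5′ to 3′ on the strand of its gene. The window of Nfkbia, chr12:55492648-55492897 on the minus strand, is given whole, and its match ends 20 bases before the start site. The other lines show 1 match each of Nfkbie and Rel and a match from 2 of the 3 windows of Nfkb2, with 15 bases on either side.
Nfkbia: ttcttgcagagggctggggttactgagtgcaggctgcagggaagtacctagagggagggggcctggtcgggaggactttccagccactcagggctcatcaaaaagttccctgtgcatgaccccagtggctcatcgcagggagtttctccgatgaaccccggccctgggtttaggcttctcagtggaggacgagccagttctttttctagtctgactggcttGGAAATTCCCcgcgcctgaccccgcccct
Nfkbie, chr17:45555579-45555618, plus strand: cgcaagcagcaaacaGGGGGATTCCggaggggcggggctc
Rel, chr11:23771036-23771076, minus strand: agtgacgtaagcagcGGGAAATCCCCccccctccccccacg
Nfkb2, chr19:46304683-46304723, plus strand: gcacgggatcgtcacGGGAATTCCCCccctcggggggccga
Nfkb2, chr19:46305690-46305729, plus strand: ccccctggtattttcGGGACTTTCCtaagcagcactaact

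The same windows were searched for letters known from BCL6 sites. The BCL6 consensus TTCCTAGAA was in 0 of the 9 windows, against 0.347% of all windows. Its shorter core TTCCNNGAA was in 1 window, the most upstream of Nfkb2, against 4.06% of all windows. Any match of that core also matches the STAT-like pair TTCNNNGAA. The pair was found in that same window only, against 7.02% of all windows. The core match did not overlap a κB match. No BCL6 peak of either list touched any of the 9 windows. A match is only a run of letters, and no sequence under the peaks themselves could be read here.

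Each deposited peak score was a whole multiple of a single step, which was 0.752 in inguinal fat and 0.882 in perigonadal fat, and the step was taken to be worth 1 tag. Scores had a median of 9.03 (12 tags) in the inguinal list, where the lowest peak rested on 9 tags, and of 8.82 (10 tags) in the perigonadal list, where the lowest rested on 6 tags. Intervals below are exact Poisson 95% intervals of the tags and cover counting error only, since amplified reads that carry no molecular identifier need not be separate molecules. Depth of the libraries is unknown. With 1 BCL6 library per depot no difference between depots could be tested, and scores are read only within a list.

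Nfkbia encodes IκBα, the inhibitor that NF-kappaB itself induces and that helps to end the response. It was the only gene of the family with a peak in both depots. In inguinal fat the peak lay at chr12:55491094-55491296 with a score of 25.6 (interval 17.7 to 35.7), or 34 tags. In perigonadal fat the peak lay at chr12:55491164-55491348 with a score of 17.6 (interval 10.8 to 27.2), or 20 tags. Both stood high in their own list: the inguinal peak ranked 96 of 1785, in the top 5.38%, and the perigonadal peak ranked 333 of 3956, in the top 8.42%, as one of 38 peaks of that score. The lower bounds of both intervals lay above the median score of the list.

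The Nfkbia peaks lay inside the gene and not on its promoter. The gene spans 3.24 kb on the minus strand (chromosome 12, 55489409 to 55492647), and the peak centres lay 1452 bp downstream of the start site in inguinal fat and 1391 bp downstream in perigonadal fat. The edge of the inguinal peak nearest the start site was 1351 bp from it, and that of the perigonadal peak 1299 bp. The peaks overlapped by 133 bp, at chr12:55491164-55491296, and their centres were 61 bp apart. Over the 508 pairs of overlapping peaks in the series the median distance between centres was 28 bp, and 18.1% of pairs were farther apart than the Nfkbia pair. Among these pairs the Nfkbia peak ranked 95 by inguinal score and 236 by perigonadal score.

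**Figure D1:**
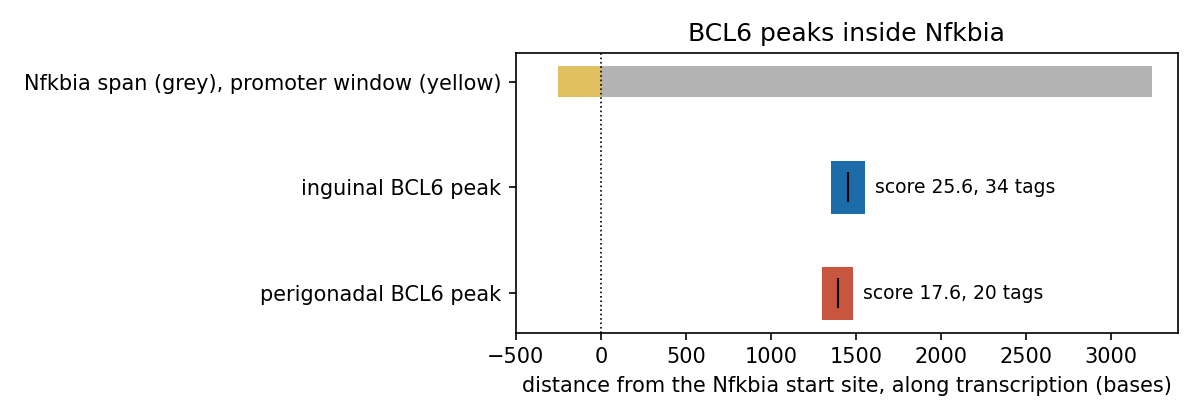
The Nfkbia gene span (grey), the 250 bases before its start (yellow) and the BCL6 peaks of inguinal (blue) and perigonadal fat (red), against distance from the start site in bases along transcription, with black ticks at peak centres. The centres sit 1452 and 1391 bp into the gene, and neither peak reaches the promoter window.

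The authors' annotation placed these overlapping peaks in different classes. The inguinal peak was assigned to exon 3 of 6 of Nfkbia. Exonic peaks were few, 20 in the inguinal list (1.12%) and 88 in the perigonadal list (2.22%), and the Nfkbia peak had the highest score of the 20 inguinal ones. In perigonadal fat 7 exonic peaks were taller than the Nfkbia peak, which was not itself assigned to an exon. These ranks were looked up after the values were known. The perigonadal peak was assigned to the end of a transcript whose accession belongs to the microRNA gene Mir1198, which the RefSeq gene table places on chromosome X, so the class of that peak does not follow from that table. Within 2 kb of a promoter, where 10.2% of inguinal and 9.73% of perigonadal peaks lay, the Nfkbia peak ranked 19 of 182 inguinal and 52 of 385 perigonadal ones. The deposited focus ratio, a fraction for the placement of tags on either side of the centre, was 0.809 in inguinal fat, near the list median of 0.812. In perigonadal fat it was 0.923, above that of 91.9% of the list, whose median was 0.833.

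Nfkbiz encodes IκBζ, a nuclear member of the inhibitor family that is induced by inflammatory signals and is needed for a subset of delayed targets. It had 2 peaks in the perigonadal list and none in the inguinal list. The taller one, at chr16:55665226-55665410, scored 9.70 (interval 4.84 to 17.4), or 11 tags, and was one of 546 peaks of that score at rank 1261. It lay between genes, 156.8 kb downstream of the nearest Nfkbiz start site. The other, at chr16:55866202-55866386, scored 7.93 (interval 3.63 to 15.1), or 9 tags, at rank 3205. It lay 27.7 kb upstream of the promoter at a different Nfkbiz start site. This second peak is in exon 3 of 6 of the neighbouring gene Nxpe3, so it was given to Nfkbiz only because that promoter is the nearest. In the inguinal list the peak nearest to the Nfkbiz span was 1229 kb away.

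Nfkb1, which encodes the precursor that yields the DNA-binding partner of RelA, was the only subunit gene with a peak. That perigonadal peak, at chr3:135592016-135592200, scored 7.93 (interval 3.63 to 15.1), or 9 tags. It lay in intron 20 of 24, 99.4 kb downstream of the promoter and 7.45 kb inside the far end of the gene. Peaks of exactly 9 tags numbered 548 in the perigonadal list, and 81.0% of that list was taller. The peaks of Nfkbiz and Nfkb1 had no inguinal partner, as was so for most of the perigonadal list, of which 12.8% overlapped an inguinal peak. The interval of each of these Nfkbiz and Nfkb1 peaks included the lowest score of the perigonadal list, 5.29. The same holds for every perigonadal peak of 11 tags or fewer, and only 31.9% of that list was taller than 11 tags.

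**Figure D2:**
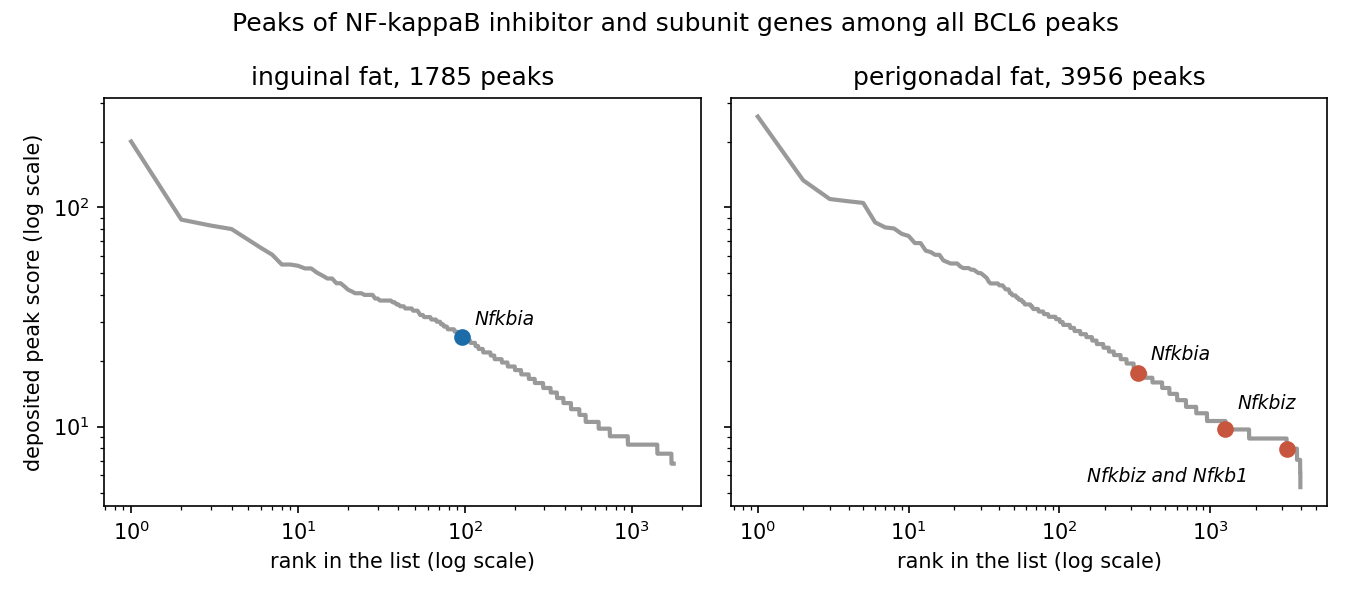
Deposited score against rank for all peaks of the inguinal (left) and perigonadal list (right), both axes on a log scale, as a grey line, with the peaks of the family as points. Nfkbia sits at rank 96 and rank 333, while the perigonadal peaks of Nfkbiz and Nfkb1 sit at ranks 1261 and 3205.

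Counted over the family, 1 of 10 genes had an inguinal peak, against 6.15% of 21887 protein-coding genes, and 3 of 10 had a perigonadal peak, against 12.3%. A peak shared between depots was found for 1 of 10, against 1.86% of protein-coding genes. With so few genes 1 more or less moves each share by a large step, so these counts are not set apart from the background. By role, inguinal peaks were found at 1 of 5 inhibitors and 0 of 5 subunits, and perigonadal peaks at 2 of 5 inhibitors and 1 of 5 subunits. The median length of the 10 genes was 12.9 kb, against 17.2 kb over all protein-coding genes, and their median territory, the gene with its side of the space to each coding neighbour, was 30.0 kb, against 46.0 kb. The genes with a peak had larger territories than that, 75.0 kb for Nfkbia, 272.8 kb for Nfkbiz and 176.4 kb for Nfkb1, and a larger territory can take in more peaks under a nearest-promoter rule. The part of territory in these counts was not tested.

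Among the inhibitors without a peak of their own, Nfkbie, which encodes IκBε, an inhibitor of Rel and RelA dimers, lay closest to BCL6 sites in both depots. Its neighbour Slc29a1, a nucleoside transporter gene, had a shared promoter peak 29.7 kb beyond the far end of Nfkbie. The score there was 18.1 (24 tags) at chr17:45592811-45593013 in inguinal fat and 22.0 (25 tags) at chr17:45592828-45593012 in perigonadal fat. Further peaks within 50 kb of Nfkbie scored 12 near the end of Slc29a1 and 9.03 on the promoter of Aars2 in inguinal fat, and 23.8 in exon 3 of 12 of Slc29a1 in perigonadal fat. Several other genes lie between Nfkbie and these peaks, and the peaks say nothing of which gene they act on.

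Nfkbib encodes IκBβ, another cytoplasmic inhibitor. Its nearest inguinal peak, of score 8.27, lay 35.1 kb away in intron 1 of 6 of Fbxo17, and its nearest perigonadal peak, of score 26.4, lay 347 kb away. Bcl3, a nuclear member of the family that binds homodimers of the Nfkb1 and Nfkb2 products, had no peak closer than 762 kb in inguinal and 152.3 kb in perigonadal fat.

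The 4 subunit genes without a peak differed in their distance from the nearest one. Rela, the main activating subunit, was 803 kb from the nearest inguinal and 190.1 kb from the nearest perigonadal peak, the second being a peak of 8.82 on the promoter of Fosl1. Rel, which encodes the c-Rel subunit prominent in lymphocytes, was 1349 kb from the nearest inguinal and 103.7 kb from the nearest perigonadal peak. Nfkb2 and Relb encode the partners of the non-canonical pathway. Nfkb2 was 120.0 kb from the nearest inguinal peak, of 9.03, and 145.5 kb from the nearest perigonadal one, of 20.3, both in introns of Sufu. Relb was 560 kb from the nearest inguinal peak, but in perigonadal fat a peak of 8.82 in intron 1 of 13 of Clptm1 lay 26.7 kb from it. Another perigonadal peak, of 11.5, lay 41.8 kb from Relb and 2.06 kb upstream of its nearest promoter, that of Ppp1r37. Relb and Bcl3 share a stretch of chromosome 7, and the Clptm1 peak was the nearest perigonadal one for both.

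**Figure D3:**
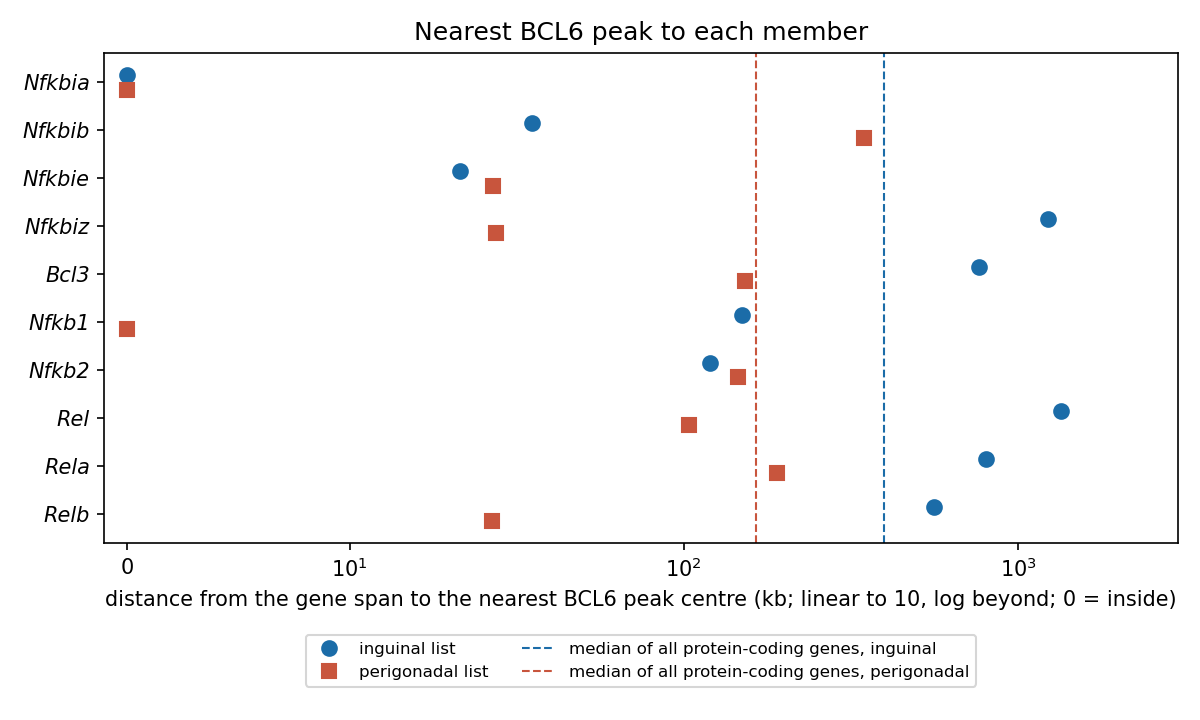
Distance in kb from the span of each gene to the nearest BCL6 peak centre in the inguinal (blue circles) and perigonadal list (red squares), linear to 10 kb and logarithmic beyond, with 0 for a centre inside the gene. Dashed lines are medians over all protein-coding genes, 397 kb for the inguinal and 164.1 kb for the perigonadal list, and only Nfkbia is at 0 in both.

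The median distance to a peak over the family was 354 kb in inguinal fat, against 397 kb over all protein-coding genes. In perigonadal fat it was 65.5 kb, against 164.1 kb. These medians describe 10 genes, of which Relb and Bcl3 have the same nearest peak in each depot, and were not tested.

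Genes elsewhere in the pathway were taken from 4 lists with 63 genes. Of these, 6 had an inguinal peak and 13 a perigonadal peak, that is 9.52% and 20.6%, beside the 6.15% and 12.3% of all protein-coding genes. Peaks common to both lists were found at 2 of the 63, Tnip1 and Cxcl10, beside 1.86% of all protein-coding genes. The tallest peak anywhere in these lists belonged to Tnip1, which encodes a ubiquitin-binding inhibitor that works with the deubiquitinase of Tnfaip3. It lay 9.13 kb upstream of the Tnip1 promoter and scored 15.8 (interval 9.78 to 24.1) at rank 263 in inguinal fat, at chr11:54971971-54972173, and 39.7 (interval 28.9 to 53.1) at rank 49 in perigonadal fat, at chr11:54971979-54972163. The perigonadal peak of Tnip1 thus stood higher in its list than that of Nfkbia, and the inguinal one lower. A second perigonadal peak lay 2.60 kb upstream of Tnip1 with a score of 8.82.

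Of the 16 other inhibitors and deubiquitinases, 1 (6.25%) had an inguinal and 3 (18.75%) a perigonadal peak, beside 6.15% and 12.3% of all protein-coding genes. Beyond Tnip1 these were Tax1bp1, an adaptor of the same deubiquitinase complex, with 10.6 located 0.785 kb into the gene, and Tnfaip3, a ubiquitin-editing enzyme and feedback inhibitor, with 7.93 at 42.3 kb downstream of its promoter. The remaining IκB-like genes of the list, Nfkbid and Nfkbil1, had none in either depot.

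Of the 17 kinases and adaptors, 0 had an inguinal and 4 (23.5%) a perigonadal peak, beside 6.15% and 12.3% of all protein-coding genes. Ikbkb, the catalytic kinase that marks IκBα for destruction, carried the tallest, with 19.4 (interval 12.2 to 29.4), or 22 tags, at rank 279 in its intron 2 of 21, 1.80 kb downstream of the promoter (chr8:22704689-22704873). Traf2 and Traf3, adaptors of TNF-family receptors, and Map3k7, the kinase upstream of the IκB kinase, had low peaks of 8.82 as their tallest, at 12.5, 34.0 and 375 kb from their promoters.

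Ligands and receptors counted 1 of 15 (6.67%) in inguinal and 4 of 15 (26.7%) in perigonadal fat, beside 6.15% and 12.3% of all protein-coding genes. All the peaks of these ligands and receptors lay between genes, at least 21.4 kb from the promoter. Tlr4, the receptor for bacterial lipopolysaccharide, had an inguinal peak of 9.03, 209 kb from its promoter. Its perigonadal peaks of 8.82, 7.93 and 7.93 lay 786, 38.95 and 21.4 kb from the promoter. None of these Tlr4 peaks was shared, while 28.5% of all inguinal and 12.8% of all perigonadal peaks were. Tlr2, another receptor for microbial products, had a perigonadal peak of 10.6. Tnfrsf11a and its ligand Tnfsf11 each had a perigonadal peak of 8.82 as their tallest.

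Of 15 genes that NF-kappaB is known to activate, 4 had an inguinal and 2 a perigonadal peak. These are shares of 26.7% and 13.3%, beside 6.15% and 12.3% of all protein-coding genes. The inguinal peaks of these genes held 10 or 11 tags, under the list median of 12, and none passed a limit of more than 12 tags. The chemokine gene Cxcl10 had a shared peak on its promoter, 0.928 kb upstream, with 8.27 in inguinal and 8.82 in perigonadal fat. The other inguinal peaks were at Il6, the interleukin gene, and Cxcl1, a chemokine gene, with 8.27 each, 64.7 and 35.1 kb upstream, and at Lcn2, the lipocalin gene, with 7.52 in intron 1. Traf1, a signalling adaptor induced by NF-kappaB, scored 14.1 in perigonadal fat, 7.59 kb upstream. The differences between the depots' counts were not tested.

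**Figure D4:**
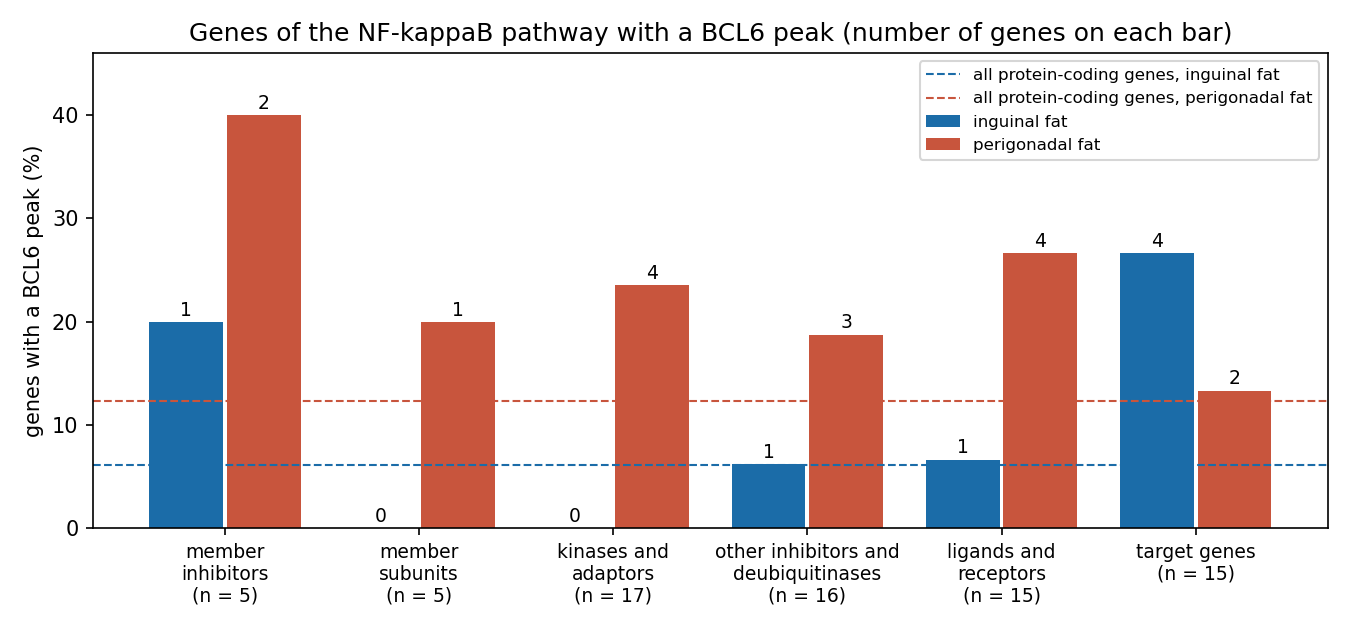
Percent of genes with a BCL6 peak in inguinal (blue) and perigonadal fat (red) for the inhibitors and subunits and for 4 further lists, with the number of genes above each bar and dashed lines at 6.15% and 12.3%, the shares of all protein-coding genes. The subunits and the kinases and adaptors have 0 genes in inguinal fat. Target genes have 4 of 15 there, all with low peaks of 10 or 11 tags.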

How the data were processed

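The analysis used the BCL6 peak lists of inguinal and perigonadal fat. Bowtie 1.2, HOMER and the mm10 build are named in the submitters' processing notes, and the lists are HOMER annotations on mm10, per the file headers. The inguinal header names a false discovery rate of 0.001 and the perigonadal header names none, so the calling limits may differ. Whether the input entered the calling is not stated in those sources. For each peak the deposited score, the deposited focus ratio (a fraction) and the distance to the nearest promoter are the authors' values. Scores were divided by their common step, and 100% of peaks then came to whole tags, allowing for the rounding of the scores.

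Genes were matched by Entrez number to a RefSeq table of GRCm38.p6, the assembly behind mm10; 1589 of 1593 inguinal and 3178 of 3180 perigonadal nearest genes matched. Peaks that overlapped by 1 bp or more counted as shared. Python 3.11.15, pandas 2.3.3 and scipy 1.17.1 were used, and the step, overlap and distance steps were tested on simulated data. The members and lists were chosen with earlier results of these data known. Named were all 10 members, the up to 5 genes with the tallest peaks and every gene with a shared peak in each pathway list, and the genes at peaks near a member. No test was possible with 1 library per depot.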

Additional observations from a re-analysis of the deposited data

How the results depend on the processing

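With peaks within 50 kb, within 10 kb, of more than 12 tags, or with both lists held to the length of the shorter (1806 perigonadal peaks with ties), 1 of 10 genes, Nfkbia, had an inguinal and a shared peak, as it did for sharing with overlap of 50% of both peaks or centres within 1 kb. Under those 4 limits the inguinal share of all protein-coding genes was 4.25%, 1.81%, 2.63% and 6.15%, and the shared one 1.29%, 0.557%, 1.38% and 1.70%. Perigonadal genes numbered 2, 1, 1 and 2, against 3, beside 8.89%, 3.98%, 3.29% and 6.09% of all genes, and perigonadal peaks 2, 1, 1 and 2, against 4. Of the 63 pathway genes, 3 inguinal and 5 perigonadal ones counted within 10 kb, 1 and 3 with more than 12 tags, and 5 perigonadal ones with equal lists, to be read beside the same shares. A further count took any gene whose span holds a peak or has an end within 50 kb. In the family it gave 3 inguinal (12.1% of protein-coding genes), 5 perigonadal (24.9%) and 2 shared genes (3.97%), through 5 inguinal and 7 perigonadal peaks. The family genes added were Nfkbib and Nfkbie in inguinal and Nfkbie and Relb in perigonadal fat. Of the 63 pathway genes it gave 6 inguinal and 22 perigonadal ones, beside the same 12.1% and 24.9%. No paired analysis was possible because each depot has 1 BCL6 library. Peaks of 9 to 12 tags lie near the calling limits, and a missing peak means only that none was called.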
